A study of Mus musculus with 4 samples.

Results

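The enzymes that write, copy and remove DNA methylation were followed in the RNA of regulatory T cells (Treg cells). By their genotype labels, these cells lack or keep the histone methyltransferase gene Kmt2d. The group holds 8 genes, chosen by name from the 20837 genes of the deposited count table: the DNA methyltransferase genes Dnmt1, Dnmt3a and Dnmt3b, the Dnmt1 partner gene Uhrf1, the TET dioxygenase genes Tet1, Tet2 and Tet3, and the DNA glycosylase gene Tdg. All 8 were in the table and all 8 passed the filter on low counts, which left 13861 genes tested. The cells were Treg cells sorted from mouse spleen, in 4 libraries. The 2 libraries called cKO carry the genotype Foxp3YFP-CreKmt2dfl/fl, in which Foxp3, the gene of the defining Treg transcription factor, drives YFP-Cre and so the deletion of loxP-flanked Kmt2d in cells that express Foxp3. The 2 libraries called WT carry Foxp3YFP-CreKmt2d+/+, so that both groups share the YFP-Cre allele. Neither age, sorting gate nor number of mice is given in the sources used here. Because no label ties each library to a mouse of its own, the p-values speak to the variation among these 4 libraries, part of which could be technical.

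DNA methylation in mammals sits mainly on cytosines of CpG dinucleotides. DNMT3A and DNMT3B place it on unmethylated DNA, while UHRF1 recognises the half-methylated CpGs that replication leaves behind and brings in DNMT1, which copies the mark to the new strand. TET enzymes oxidise 5-methylcytosine, using 2-oxoglutarate and iron, and TDG cuts out the later oxidation products so that base excision repair can restore plain cytosine. In Treg cells, stable Foxp3 expression is known to depend on demethylated CpGs in an intronic enhancer of Foxp3, and TET enzymes and UHRF1 are both known from mouse knockouts to matter for Treg cells.

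CpGs are dense in the DNA just upstream of several of these 8 genes, although whether they are methylated was not measured. RefSeq gives 13 transcription starts for the 8 genes, and the 250 bases before a start held between 2 CpGs, before the most upstream Dnmt1 start, and 51 CpGs, before the Tet2 start, against a median of 6 over 32851 such windows of all genes. The lines below show the windows of the 3 genes whose RNA rose and of Tet2, the paralogue of Tet1 with the CpG-richest window, each 5′ to 3′ on the strand of the gene, with CpGs in capitals. Only the longest stretch outside annotated exons of the same gene is printed, which shortens the Tet1 window to 88 bases; for Uhrf1 and Dnmt1, which have several starts, a window free of exons is shown. The sequences are RefSeq's, build GRCm38.p6, at chr10:62887325-62887412 (minus strand) for Tet1, chr17:56304063-56304312 (plus strand) for Uhrf1, chr9:20952980-20953229 (minus strand) for Dnmt1 and chr3:133544391-133544640 (minus strand) for Tet2.
Tet1: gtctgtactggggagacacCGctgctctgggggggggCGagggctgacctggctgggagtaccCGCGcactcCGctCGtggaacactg
Uhrf1: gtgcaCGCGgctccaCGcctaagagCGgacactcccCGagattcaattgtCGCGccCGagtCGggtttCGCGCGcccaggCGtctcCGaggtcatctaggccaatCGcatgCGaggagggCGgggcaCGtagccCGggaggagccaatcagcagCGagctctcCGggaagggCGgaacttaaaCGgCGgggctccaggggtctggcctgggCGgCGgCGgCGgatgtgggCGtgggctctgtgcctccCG
Dnmt1: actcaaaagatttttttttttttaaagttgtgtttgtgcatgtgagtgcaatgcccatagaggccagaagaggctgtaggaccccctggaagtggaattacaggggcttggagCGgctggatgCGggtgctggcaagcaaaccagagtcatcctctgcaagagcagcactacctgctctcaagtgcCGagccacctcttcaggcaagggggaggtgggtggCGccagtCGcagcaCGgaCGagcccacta
Tet2: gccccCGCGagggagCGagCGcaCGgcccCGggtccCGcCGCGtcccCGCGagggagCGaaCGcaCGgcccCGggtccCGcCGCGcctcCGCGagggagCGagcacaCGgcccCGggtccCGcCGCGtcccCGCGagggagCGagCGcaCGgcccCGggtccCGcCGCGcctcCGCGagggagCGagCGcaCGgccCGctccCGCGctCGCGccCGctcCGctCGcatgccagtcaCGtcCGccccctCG
The printed stretches hold 6 CpGs for Tet1, 30 for Uhrf1, 7 for Dnmt1 and 51 for Tet2. The whole Tet1 window of 250 bases holds 15 CpGs. Of the windows not shown, that before the most downstream Dnmt1 start holds 26, that before the most upstream Dnmt1 start 2 and that of Uhrf1 10. Letters of the E2F binding motif, searched on both strands as TTTCCCGC, TTTCGCGC, TTTGCCGC and TTTGGCGC, occurred in 2 of the 13 windows, against 1.86% of all windows. One is the Uhrf1 window shown, where TTTCGCGC begins 185 bases before the start, and the other lies before the most downstream Dnmt1 start, where the same letters stand on the other strand 219 bases before it, inside an annotated exon. Such a match is a description of letters and no site of binding, and the printed Tet1, Dnmt1 and Tet2 stretches hold none of these letters. Each string searched itself holds a CpG, and the 13 windows were not matched to all windows for CpG content. Nothing is therefore read from 2 of 13 beside 1.86%.

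Total counts ran from 28442416 to 35560491 per library, so that 1 read was worth between 0.0288 and 0.0344 CPM (counts per 1e6 reads, with library sizes scaled by TMM factors) and the least counted member, Dnmt3b, still had at least 228 counts in each library. Kmt2d itself had 836 and 793 CPM in cKO and 721 and 704 CPM in WT (log2 fold change 0.19, SE 0.05, edgeR quasi-likelihood adjusted p = 0.0375, and between 0.0951 and 0.237 with any library left out). A count over a whole gene includes exons outside a deleted part, so it does not check the labels. Foxp3 had 169.8 and 180.2 CPM in cKO, against 278 and 250.2 CPM in WT. The 14 T cell markers summed to 5879 and 6327 CPM in cKO and 7568 and 7256 CPM in WT, and none was at 0. Markers of other cells were present too. The 17 neutrophil markers summed to 791 and 1605 CPM in cKO, against 95.0 and 244 CPM in WT, and 16 of the 17 passed the test as higher. The 10 basophil and mast cell markers summed to 51.3 and 69.4 CPM in cKO and 16.7 and 20.8 CPM in WT, with 8 of 9 tested higher, while the mast cell protease gene Tpsb2 was at 0 in cKO 1 and WT 1. Macrophage and monocyte markers summed to 1140 and 944 CPM in cKO and 678 and 945 CPM in WT. Only 2 of these 14, Lyz2 and Ly6c2, passed as higher, and the median log2 fold change of the list was -0.40. Lyz2 alone had 584 and 544 CPM in cKO, against 261 and 286 CPM in WT. B cell markers summed to 200.2 and 322 CPM in cKO and 157 and 189 CPM in WT (2 of 10 higher). CD8 T and NK cell markers summed to 284 and 297 CPM in cKO and 173 and 204 CPM in WT (10 of 11 higher). Dendritic cell markers summed to 231 and 216 CPM in cKO and 158 and 165 CPM in WT (4 of 10 higher). No marker of these 4 lists was at 0 in any library. The part of these cells in the results below was not tested except where a value is given, and in bulk RNA fewer cells of a type and less RNA per cell cannot be told apart.

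The comparison asks how the methylation machinery differs when the genotype deletes Kmt2d in Foxp3-expressing cells. In the libraries labelled cKO, 3 of the 8 genes rose: Tet1 by 1.91-fold, Uhrf1 by 1.65-fold and Dnmt1 by 1.20-fold. None fell, and Dnmt3a, Dnmt3b, Tet2, Tet3 and Tdg did not pass the test (edgeR quasi-likelihood test, adjusted p under 0.05 over all genes tested). Across all genes 31.6% passed, 16.5% as higher and 15.1% as lower, so that 3 of 8 passing is near the share over all genes, and with 8 genes nothing is read from their being higher. The median log2 fold change of the 8 genes was -0.07, beside 0.0003 over all genes tested. Libraries of the groups did not overlap for 5 of the 8, against 66.0% of all genes tested.

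**Figure D1:**
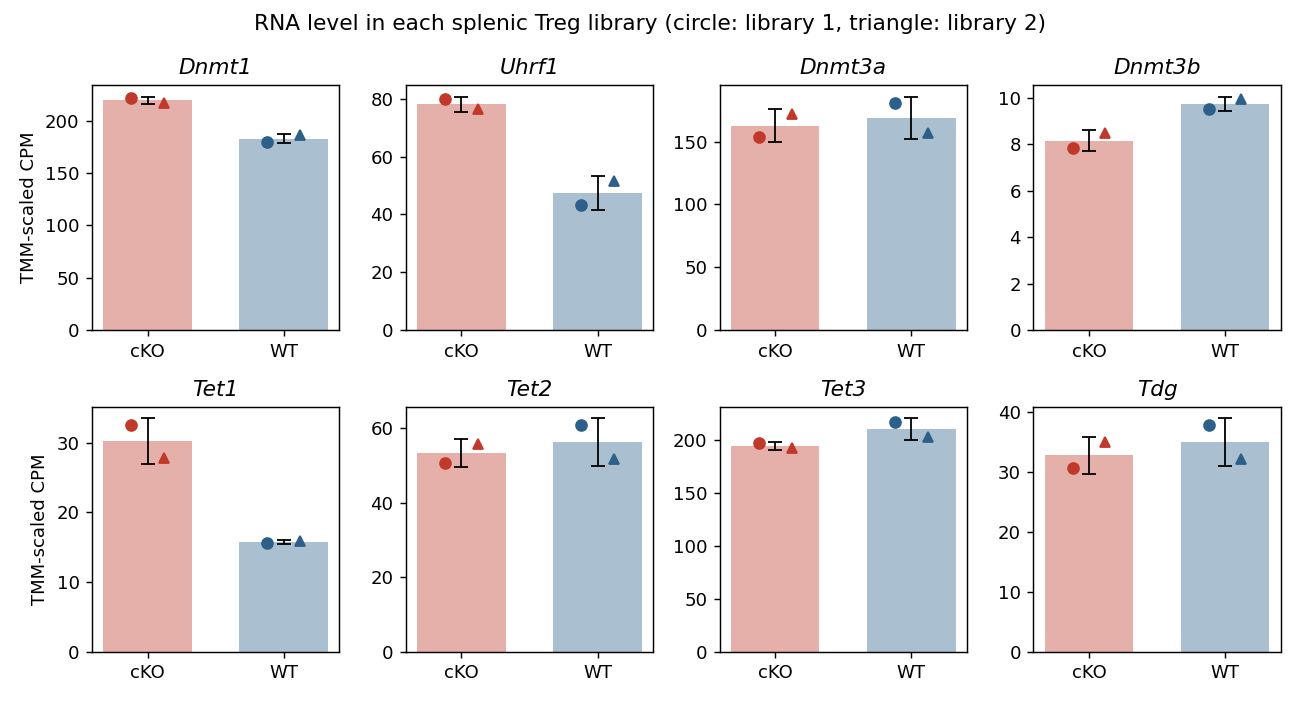
TMM-scaled CPM (y axes, each from 0) of the 8 genes in cKO and WT libraries; bars are means, error bars SD over n = 2 libraries, circles library 1 and triangles library 2. Both cKO libraries stand above both WT libraries for Dnmt1, Uhrf1 and Tet1, and below them for Dnmt3b and Tet3.

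Among the genes that copy methylation after replication, Uhrf1 showed the larger difference. Uhrf1 (gene number 18140, mm10 chromosome 17, 56303321 to 56323486) encodes a multidomain protein that reads half-methylated CpG and ubiquitinates histone H3. It had 2327 and 2636 counts in cKO, against 1503 and 1574 counts in WT, or 80.0 and 76.3 CPM in cKO and 43.3 and 51.6 CPM in WT. Both cKO libraries were high and close together, and the spread in WT, with WT 1 the lowest of the 4, was much smaller than the distance between the groups. The means were 78.2 ± 2.59 CPM in cKO and 47.5 ± 5.90 CPM in WT (SD, n = 2 each), a log2 fold change of 0.72 (SE 0.09, 95% interval 0.50 to 0.94, edgeR quasi-likelihood adjusted p = 0.00541). Dnmt1 (gene number 13433, chromosome 9, 20907209 to 20959888) encodes the maintenance methyltransferase. Its level was 222 and 217 CPM in cKO, against 179.6 and 186 CPM in WT. The groups did not overlap, and the distance between them was several times that between libraries of a group. The means were 219.6 ± 3.56 CPM in cKO and 183 ± 4.61 CPM in WT (SD, n = 2 each), a log2 fold change of 0.26 (SE 0.05, 95% interval 0.14 to 0.38, edgeR adjusted p = 0.0121). This call ended without cKO 1 (edgeR adjusted p = 0.0797) and without WT 1 (edgeR adjusted p = 0.0682), while that of Uhrf1 held with any library left out (edgeR adjusted p between 0.00644 and 0.0188).

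The genes of new methylation, Dnmt3a and Dnmt3b, did not pass. Dnmt3a (gene number 13435, chromosome 12, 3806007 to 3914443), the main methyltransferase of new sites in mature T cells, measured 153 and 172 CPM in cKO and 181 and 157 CPM in WT. Libraries of the groups overlapped, and the log2 fold change was -0.05 (SE 0.09, 95% interval -0.28 to 0.17, edgeR adjusted p = 0.740). Its sign turned without cKO 1 (0.02) and without WT 1 (0.05). Dnmt3b (gene number 13436, chromosome 2, 153649450 to 153687730) was the least counted, with 228 and 293 counts in cKO and 331 and 304 counts in WT. That is 7.84 and 8.49 CPM in cKO, against 9.54 and 9.98 CPM in WT. Its cKO libraries were lower than either WT library, with a log2 fold change of -0.26 (SE 0.11, 95% interval -0.52 to 0.0049, edgeR adjusted p = 0.124). Dnmt3b and Dnmt1 had log2 fold changes of like size and opposite sign, -0.26 and 0.26, and only that of Dnmt1 passed.

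Tet1 was the member with the smallest p. Tet1 (gene number 52463, chromosome 10, 62804570 to 62908996) encodes a dioxygenase whose CXXC domain binds unmethylated CpG. It had 946 and 962 counts in cKO, against 541 and 486 counts in WT. On the CPM scale these were 32.5 and 27.9 CPM in cKO and 15.6 and 15.9 CPM in WT. Both WT libraries were low and nearly equal, and the lower cKO library was still well above them. The means were 30.2 ± 3.30 CPM in cKO and 15.8 ± 0.255 CPM in WT (SD, n = 2 each), a log2 fold change of 0.94 (SE 0.10, 95% interval 0.70 to 1.17, edgeR adjusted p = 0.00427). The log2 fold change stayed between 0.82 and 1.04 with any library left out (edgeR adjusted p between 0.00181 and 0.0201).

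The other TET genes and Tdg did not pass. Tet2 (gene number 214133, chromosome 3, 133463679 to 133545139), a dioxygenase without a CXXC domain of its own, measured 50.5 and 55.8 CPM in cKO and 60.7 and 51.7 CPM in WT. These ranges overlap, and the log2 fold change was -0.08 (SE 0.09, 95% interval -0.31 to 0.15, edgeR adjusted p = 0.594), turning to 0.04 without WT 1. Tet3 (gene number 194388, chromosome 6, 83362373 to 83459084) measured 197 and 192 CPM in cKO, against 218 and 203 CPM in WT. The cKO libraries were the lower ones here too, although the nearest cKO and WT libraries were closer than the SD of 10.2 CPM in WT, and the log2 fold change was -0.11 (SE 0.05, 95% interval -0.25 to 0.02, edgeR adjusted p = 0.184). Tdg (gene number 21665, chromosome 10, 82629828 to 82650799), which encodes the glycosylase that removes 5-formylcytosine and 5-carboxylcytosine, measured 30.6 and 35.0 CPM in cKO and 37.8 and 32.2 CPM in WT. Its groups overlapped, with a log2 fold change of -0.09 (SE 0.11, 95% interval -0.35 to 0.17, edgeR adjusted p = 0.589), turning to 0.03 without WT 1. For Tet2 and Tdg the intervals leave out a change as large as that of Tet1 in either direction. Dnmt3a, Tet2 and Tdg shared a pattern across libraries, with WT 1 the highest and cKO 1 the lowest.

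**Figure D2:**
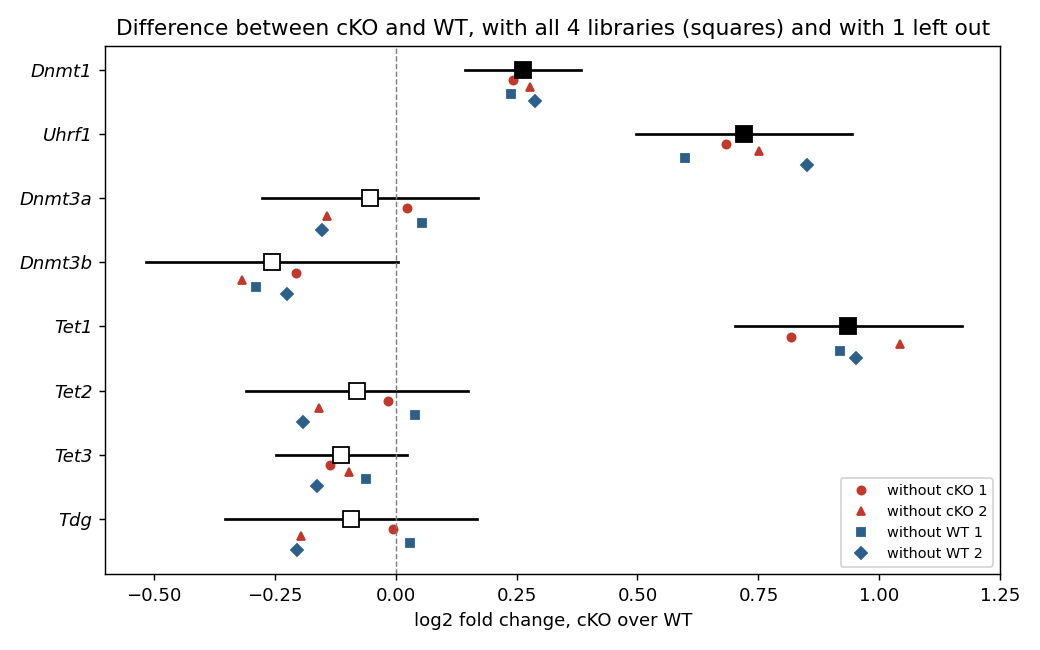
Log2 fold change of cKO over WT (x axis) for the 8 genes: large squares use all 4 libraries, filled where the adjusted p is under 0.05, with 95% intervals as lines, and small symbols leave out 1 library. Tet1 and Uhrf1 stay right of 0.5 whichever library is left out, while Dnmt3a, Tet2 and Tdg cross 0.

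Per length of RNA, Dnmt1 was the most abundant of the 8 in both groups. Lengths are the bases in the union of annotated exons (GENCODE M21), so levels below are CPM per kilobase. In cKO, the order of mean levels was Dnmt1 (29.8 CPM per kilobase), Uhrf1 (18.4), Tet3 (11.7), Dnmt3a (9.78), Tdg (6.11), Tet2 (3.15), Tet1 (1.95) and Dnmt3b (1.60), with no overlap of libraries between neighbours. In WT the order was Dnmt1 (24.8 CPM per kilobase), Tet3 (12.6), Uhrf1 (11.1), Dnmt3a (10.1), Tdg (6.51), Tet2 (3.33), Dnmt3b (1.91) and Tet1 (1.02), where of all neighbours only Uhrf1 and Dnmt3a overlapped. Uhrf1 thus stood above Tet3 in both cKO libraries and below it in both WT libraries, and Tet1 likewise changed places with Dnmt3b. With the longest annotated transcript as the length, Tet1 and Dnmt3b overlapped in cKO, and Tet3 and Dnmt3a overlapped in both groups. That length also put Dnmt3a (17.4 CPM per kilobase) above Uhrf1 (13.2) in WT, with libraries separate, where the exon union has Uhrf1 first and overlapping.

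The balance within each family differed accordingly. Tet1 made up 12.4% and 10.8% of the summed TET level per kilobase in cKO, against 5.72% and 6.34% in WT. Tet3 was the main TET transcript of both groups, with 69.8% and 69.2% in cKO and 73.9% and 74.8% in WT, and Tet2 had 17.7% and 19.9% in cKO and 20.4% and 18.9% in WT. The TET sum itself overlapped between the groups, at 16.9 and 16.6 CPM per kilobase in cKO and 17.6 and 16.3 CPM per kilobase in WT (means of 25.7 and 26.5 CPM per kilobase in cKO and WT with the longest transcript as the length). The DNMT sum was 40.9 and 41.4 CPM per kilobase in cKO, against 37.1 and 36.6 CPM per kilobase in WT. Uhrf1 RNA per kilobase was 0.624 and 0.609 of Dnmt1 RNA in cKO and 0.418 and 0.481 of it in WT. An exact permutation test of 2 against 2 libraries cannot give a p below 0.333, so these shares are given without a test.

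**Figure D3:**
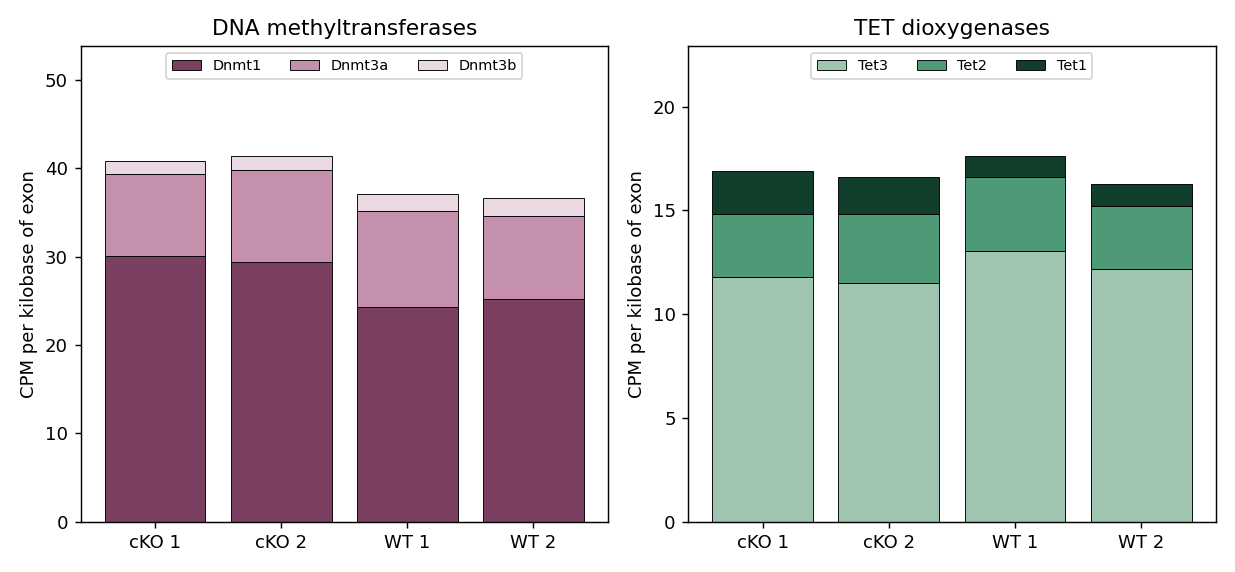
Stacked levels of the DNMT genes (left) and TET genes (right) in CPM per kilobase of exon (y axes) for each library (x axis), cKO left of WT. The dark Tet1 segment is taller in both cKO libraries while the TET total stays between 16.3 and 17.6; the Dnmt1 segment is larger in both cKO libraries.

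Maintenance of methylation is coupled to DNA replication, and cell cycle genes were higher in the same libraries. Of 35 genes of S phase and DNA replication, 26 rose, 1 fell and 8 did not pass, with a median log2 fold change of 0.43, beside 0.0003 over all genes tested. The shares over all genes tested were 16.5% higher and 15.1% lower. E2f2, an E2F transcription factor gene, rose by 0.97 on the log2 scale, the ribonucleotide reductase gene Rrm2 by 0.85, the thymidine kinase gene Tk1 by 0.77 and the polymerase alpha gene Pola1 by 0.41 (edgeR adjusted p between 0.00507 and 0.00644). The licensing factor gene Cdt1 fell by 0.50 on the log2 scale, and Pcna, the replication clamp that recruits DNMT1, had a log2 fold change of -0.05 and did not pass. All 24 genes of G2 and mitosis rose (median log2 fold change 0.93), among them Mki67 (0.96), Kif23 (0.82), Cenpf (1.01) and Ccna2 (0.93), with edgeR adjusted p between 0.00412 and 0.00461. The S phase genes summed to 2131 and 2078 CPM in cKO, against 1600.0 and 1714 CPM in WT, and the mitosis genes to 1567 and 1423 CPM in cKO, against 696 and 852 CPM in WT.

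Set against these sums, the 3 genes that rose differed among themselves. Dnmt1 equalled 10.4% and 10.4% of the S phase sum in cKO and 11.2% and 10.9% of it in WT. Against the mitosis sum Dnmt1 was lower in both cKO libraries, at 14.2% and 15.3% in cKO and 25.8% and 21.8% in WT. Uhrf1 equalled 3.75% and 3.67% of the S phase sum in cKO, against 2.71% and 3.01% in WT, and 5.11% and 5.37% of the mitosis sum in cKO, against 6.22% and 6.06% in WT. Tet1 equalled 1.53% and 1.34% of the S phase sum in cKO, against 0.974% and 0.930% in WT. Relative to the mitosis sum Tet1 overlapped between the groups, at 2.08% and 1.96% in cKO and 2.24% and 1.87% in WT. Within cKO, Tet1, Uhrf1, Dnmt1 and both sums were higher in cKO 1, the library with the smaller neutrophil sum (791 CPM, against 1605 CPM in cKO 2). Within WT, Uhrf1, Dnmt1, Tet1 and both sums were higher in WT 2, which has the larger neutrophil sum. Macrophage and monocyte markers (1140 and 944 CPM in cKO, 678 and 945 CPM in WT) were also higher in cKO 1 and WT 2. So were dendritic cell markers (231 and 216 CPM in cKO, 158 and 165 CPM in WT). Basophil, B cell and CD8 T and NK cell sums were higher in cKO 2 and WT 2. T cell and erythroid sums were higher in cKO 2 and WT 1. Some of these differences within a group were small, such as 15.6 and 15.9 CPM for Tet1 in WT and 222 and 217 CPM for Dnmt1 in cKO. Over all genes tested, WT 1 minus WT 2 correlated at -0.41 with cKO 1 minus cKO 2. Genes across the table thus tended to be higher, or lower, in cKO 1 and WT 2 together, and nothing is read from these orders. The part of cycling cells or of these other cells in the rise of the 3 genes was not tested.

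Partners of the maintenance enzymes gave 4 rises and 0 falls among 13 tested helpers and other writers, with 9 not passing and a median log2 fold change of 0.08. Over all genes tested 31.6% passed, so 4 of 13 is near that share and nothing is read from the count. Hells, the chromatin remodeller LSH needed for methylation of repeats, reached 43.8 and 41.5 CPM in cKO, against 23.5 and 28.1 CPM in WT (log2 fold change 0.73, SE 0.10, edgeR adjusted p = 0.00564). Cdca7, which encodes the partner that activates HELLS, rose by 0.58 on the log2 scale and its relative Cdca7l by 0.48. Setdb1, a histone H3 lysine 9 methyltransferase gene, rose by 0.25, a call that ended without cKO 1 (edgeR adjusted p = 0.120), WT 1 (0.0894) or WT 2 (0.0582). Uhrf2, the paralogue of Uhrf1, had a log2 fold change of -0.11 and did not pass. Dnmt3l, a cofactor of germ cells, was not tested, with 1 count over the 4 libraries.

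Genes of excision repair and other helpers of demethylation moved in both directions: 7 of 22 rose, 4 fell and 11 did not pass (median log2 fold change 0.10). Of all genes tested, 16.5% rose and 15.1% fell. Gadd45b, a stress gene linked to active demethylation, fell to 54.3 and 81.7 CPM in cKO, against 176 and 163 CPM in WT, a log2 fold change of -1.31 (SE 0.18, edgeR adjusted p = 0.00614). The cytidine deaminase gene Apobec3 fell by 0.81 on the log2 scale, the glycosylase gene Neil1 by 0.49 and Hmces, which shields abasic sites, by 0.36. Neil3, a glycosylase gene known from cycling cells, rose by 0.98, and Ogt, whose product binds TET proteins and modifies them with GlcNAc, by 0.45 (edgeR adjusted p = 0.00543). The other genes of the list that rose were Mbd4 (0.38), Polb (0.35), Ung (0.31), Parp1 (0.28) and Apex1 (0.25). With 1 library left out the list gave 5 calls without cKO 1, 7 without cKO 2, 4 without WT 1 and 7 without WT 2, and DESeq2 gave 7. The call of Neil1 ended without WT 1 (edgeR adjusted p = 0.0585), and that of Hmces without cKO 1 (0.0971), WT 1 (0.0960) or WT 2 (0.0574).

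Listed readers of methyl-CpG and their relatives split evenly, with 3 of 10 higher, 3 lower and 4 not passing (median log2 fold change -0.01). The shares over all genes tested were 16.5% higher and 15.1% lower. Mbd2, a NuRD-recruiting reader, rose by 0.22 on the log2 scale, Mbd4, a reader with a glycosylase domain, by 0.38 and Mbd3 by 0.19. Among those that fell, the zinc finger reader gene Zbtb38 fell by 0.47 and Zbtb4 by 0.23. The log2 fold changes of those that did not pass were -0.11 for Mbd6, 0.05 for Zbtb33, -0.02 for Mbd5 and 0.003 for Mbd1. With 1 library left out the list gave 2 calls without cKO 1, 1 without cKO 2, 1 without WT 1 and 3 without WT 2. Those of Mbd2, Mbd3 and Mbd4 ended with any library left out, with edgeR adjusted p between 0.0670 and 0.101 for Mbd2, 0.0642 and 0.216 for Mbd3 and 0.0579 and 0.139 for Mbd4. The call of Zbtb4 ended without cKO 1 (0.0759), cKO 2 (0.144) and WT 1 (0.120).

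Supply of the methyl donor S-adenosylmethionine gave 5 rises, 2 falls and 9 genes not passing among 16 (median log2 fold change 0.08). Beside this, 16.5% of all genes tested rose and 15.1% fell. The serine hydroxymethyltransferase genes Shmt1 and Shmt2 rose by 0.66 and 0.36 on the log2 scale, Ahcy, which clears the inhibitory product S-adenosylhomocysteine, by 0.30, the folate carrier gene Slc19a1 by 0.25 and the methionine synthase gene Mtr by 0.25. Slc3a2, which encodes the heavy chain shared by several amino acid transporters, fell by 0.47 and Mat2a, which encodes the enzyme that makes S-adenosylmethionine, by 0.27. The list gave 3 calls without cKO 1, 4 without cKO 2 and 3 without WT 1. Mtr and Slc19a1 lost their call with any library left out (edgeR adjusted p between 0.0641 and 0.150 for Mtr and 0.0920 and 0.253 for Slc19a1), Ahcy without cKO 1 (0.0743) and WT 1 (0.0681), and Mat2a without cKO 1 (0.0938), cKO 2 (0.0507) and WT 1 (0.0793).

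Supply of the TET cosubstrate 2-oxoglutarate and of vitamin C, which aids TET enzymes, gave 3 rises, 2 falls and 13 genes not passing among 18 (median log2 fold change 0.05). This is near the 31.6% that passed over all genes tested, and nothing is read from the count. Got2, Idh3a and Fh1, mitochondrial enzymes that make 2-oxoglutarate or clear the TET inhibitor fumarate, rose by 0.29, 0.21 and 0.20 on the log2 scale. Slc2a1, a glucose transporter gene, fell by 0.45 and Slc23a2, a vitamin C transporter gene, by 0.17. Without 1 library the list gave between 1 and 2 calls, and DESeq2 gave 2. Idh3a, Fh1 and Slc23a2 lost their call with any library left out (edgeR adjusted p between 0.0653 and 0.157 for Idh3a, 0.0883 and 0.190 for Fh1 and 0.0805 and 0.215 for Slc23a2), and Got2 without cKO 1 (0.0580) and WT 1 (0.0595).

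**Figure D4:**
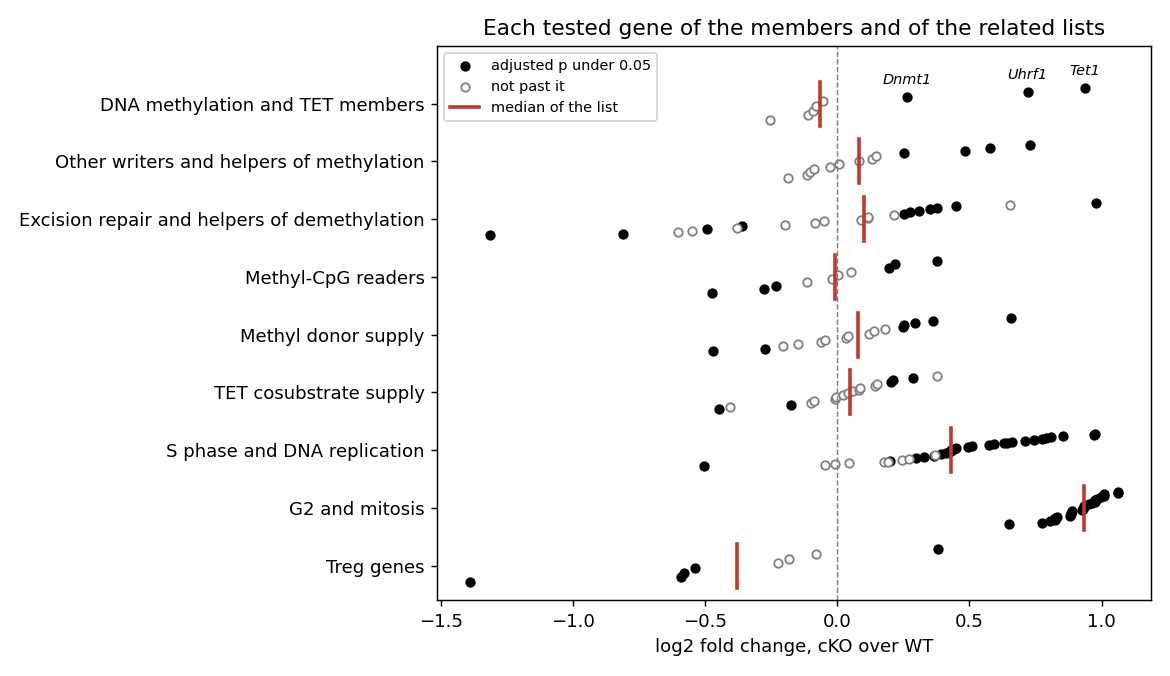
Log2 fold change of cKO over WT (x axis) of each tested gene in the 8 members and in related gene lists (y axis); filled points passed the test and red lines are list medians. Tet1, Uhrf1 and Dnmt1 lie above 0 and the other members below it. The medians are 0.43 for the S phase list and 0.93 for the mitosis list. The lowest S phase gene is Cdt1 (-0.50), and the next lowest, Pcna (-0.046), lies above each member that is below 0.

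Among 8 Treg genes, several of which are known to carry demethylated regions in Treg cells, 4 fell, 1 rose and 3 did not pass (median log2 fold change -0.38, beside a median of -0.32 for the 14 T cell markers in the same libraries, 9 of which fell). Nrp1 fell by 1.39 on the log2 scale, Foxp3 by 0.59, Tnfrsf18, which encodes GITR, by 0.58 and Ikzf4, which encodes Eos, by 0.54 (edgeR adjusted p between 0.00205 and 0.00639), and Il2ra rose by 0.38. Lrrc32 had a log2 fold change of -0.22, Ctla4 of -0.18 and Ikzf2 of -0.08, and all 3 turned positive without cKO 1 (0.03, 0.10 and 0.01) and without WT 1 (0.24, 0.15 and 0.15). DNA methylation itself was not measured in these libraries.

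The genes with a pattern most like that of Tet1 over the 4 libraries were the ubiquitin-conjugating enzyme gene Ube2e2, the adhesion molecule gene Cadm3 and the cytochrome P450 gene Cyp4f37, at distances of 0.04, 0.04 and 0.05 between centred log2 CPM profiles. Of 11925 genes compared, 313 lay within 0.25 of Tet1. For Dnmt3b the nearest were Fth1, Csnk1g2 and Zbtb7a, each at 0.01, and 3448 genes lay within 0.25. With so many genes close by, 4 libraries single out no gene for Dnmt3b or for Tet1. Genes that overlap the members had few reads: Dnmt3aos, opposite to Dnmt3a, and B230319C09Rik, opposite to Tet3, each had 1 count over the 4 libraries, and Glt8d2, opposite to Tdg, had 0.481 and 0.695 CPM in cKO and 0.720 and 0.492 CPM in WT. Other annotated overlapping transcripts of Dnmt1, Dnmt3b, Tet1, Tet2 and Tet3 were not analysed here. Whether counting used strand is not given in the sources used here.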

How the data were processed

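RNA of 4 libraries of sorted splenic Treg cells was analysed, 2 cKO and 2 WT, grouped by the sample titles and genotype labels. The extraction protocol in the labels describes macrophages of another knockout and contradicts the tissue and cell type labels, which were followed. Raw read counts for 20837 genes were deposited by the authors as whole numbers in a single table. The build is mm10, per the submitters' processing notes, and neither aligner, counter nor annotation is given in the sources used here.

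Low genes were removed by filterByExpr of edgeR 4.0.16 in R 4.3.3 (at least 10 counts in at least 2 libraries and 15 in all, at edgeR's scaling). TMM-scaled counts were compared by the 2-sided quasi-likelihood F-test with group as the only term. Benjamini-Hochberg adjustment covered 13861 genes, at a threshold of 0.05. SE is the absolute log2 fold change over the square root of F, and 95% intervals use the test's degrees of freedom. On simulated counts (3 runs, 200 changed genes each, 13722 to 13741 genes tested) the test called 60.0% of 1.5-fold, 80.6% of 2-fold and 97.5% of 4-fold changes, and 4.11% of calls were false. The simulated libraries were independent and had few changed genes, whereas 31.6% of genes passed in the data. These rates therefore need not hold for the data. Replicates of a group differed beyond sampling noise, with a chi-square per degree of freedom of 9.48 in cKO and 10.2 in WT.

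The members and gene lists were chosen with earlier results of these data known. Named are the members, Kmt2d, Foxp3 and P2rx7 as genes of the study, up to 4 genes of each list with the smallest p, and the 3 genes (mean of 1 CPM or more) nearest to the most changed member in each direction. All further names were picked with their values in view. P2rx7 had 95.9 and 91.5 CPM in cKO and 185 and 199 CPM in WT. Erythroid and platelet markers summed to 179 and 487 CPM in cKO and 634 and 229.7 CPM in WT (1 of 8 tested higher, 1 lower), with Gp9 at 0 in cKO 1, Pf4 in cKO 2 and Klf1 in WT 2. The values of 1 gene of the reader list are not reported here. Ighm and Ighd of the B cell list were not analysed here. Alternatives tried were DESeq2 1.42.0, scaling by RLE or upper quartiles, no filter, the replicate number as a block and leaving out each library. Gene positions and exon lengths came from GENCODE M21 (GRCm38, the assembly of mm10), and promoter windows from RefSeq (GRCm38.p6).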

Additional observations from a re-analysis of the deposited data

How the results depend on the processing

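Tet1 and Uhrf1 kept their direction and call under each alternative run, and Tet3 its direction without a call. The cause of the changes below was not tested. Leaving out 1 library gave log2 fold changes of 0.24 to 0.29 for Dnmt1, -0.15 to 0.054 for Dnmt3a, -0.19 to 0.040 for Tet2 and -0.20 to 0.031 for Tdg. It gave 1869 to 2747 called genes (886 to 1375 higher, 983 to 1372 lower) against 4380 with all libraries, and in the lists 4 to 7 (excision repair), 1 to 3 (readers), 3 to 5 (methyl donor) and 1 to 2 (TET cosubstrate). DESeq2 called 2876 genes (1301 higher), 7 of excision repair and 2 of TET cosubstrate supply. The same replicate number in both groups is not said to mark a shared animal or day: with it as a block, 2292 genes were called (1151 higher, 1141 lower), Dnmt1 had a log2 fold change of 0.26 (edgeR adjusted p = 0.0566), and the lists gave 5, 2, 3 and 2 calls in the order above. Deviations of same-numbered libraries from their group means correlated at -0.41, and a crossed block, added after seeing the data, called 6713 genes (3520 higher, 3193 lower), 17, 11 and 9 in the excision repair, methyl donor and cosubstrate lists, and Dnmt3b (-0.25, edgeR adjusted p = 0.0384). With the longest transcript as length, also added later because the planned lengths could not be had, cKO and WT means were 8.16% and 4.15% for Tet1, 22.5% and 23.1% for Tet2 and, in WT, 72.8% for Tet3, with TET sums of 25.7 and 26.5 and DNMT sums of 56.1 and 50.8 CPM per kilobase. Genes near 0 changed sign: Mbd1 was -0.016 with RLE scaling, -0.015 with DESeq2, -0.0049 with no filter and -0.037 to 0.036 leaving out 1 library, and Mbd5 was 0.0086 with upper-quartile scaling. Leaving out 1 library gave log2 fold changes of -0.18 to 0.16 for Mbd5, -0.041 to 0.15 for Zbtb33, -0.57 to 0.24 for Lrrc32, -0.54 to 0.15 for Ctla4 and -0.28 to 0.15 for Ikzf2.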
